A study of Mus musculus with 12 samples.

Results

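The genes described here are 33 mouse genes of glucose metabolism, measured in leukemia cells that had grown in 3 kinds of host mice. They were chosen by name for their place in glucose uptake, glycolysis, lactate handling and the pentose phosphate pathway, with no cutoff on a measured value. The 33 genes were taken from a table of 55401 annotated genes by matching mouse gene identifiers to symbols, and each of them was found. All 33 passed the filter on low values (12-library mean of 1 TPM or more), as did 15026 genes in all. TPM is a transcript level scaled to transcript length and to a library total of 1000000, so it can be compared between genes.

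The cells were MLL-AF9 cells, mouse bone marrow progenitors transduced with the MLL-AF9 fusion gene and GFP, made aggressive by serial passage through mice and named in the labels as a single cell line. They were transplanted into female mice of 8 to 12 weeks. WT hosts were C57BL/6 mice with an intact immune system. Rag2-/- hosts cannot form mature T or B lymphocytes but retain NK cells, and NSG hosts are without all 3 of these lymphocyte types. Only the host differed by genotype, since the same leukemia cells went into each. NSG mice carry the NOD genetic background, so that background, the missing NK cells and any other genetic difference of NSG hosts cannot be told apart. GFP+ cells were sorted from bone marrow of moribund mice, poly(A) RNA was sequenced from 3000000 cells a sample, and each host gave 4 libraries labelled as biological replicates. The labels do not say that each replicate was a separate mouse, so p-values measure the spread between these libraries.

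Glycolysis breaks glucose down to pyruvate in the cytosol and yields ATP, and lactate dehydrogenase and the lactate transporters dispose of pyruvate as lactate. The pentose phosphate pathway branches off at glucose-6-phosphate. Its oxidative arm makes NADPH, which granulocytes use for the oxidative burst and all cells for biosynthesis and redox defence, and its non-oxidative arm makes ribose phosphate for nucleotides and returns carbon to glycolysis. Both pathways are much used by proliferating leukemia cells and by myeloid cells.

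Library composition differed between hosts. Of 16 neutrophil marker genes, 12 were called higher in Rag2-/- than in WT, where 1.14% of all genes were called higher, and 9 were called higher than in NSG, where 0.193% were. Their summed level ran from 1789 to 3609 TPM in WT and from 2159 to 3521 TPM in NSG. In Rag2-/- libraries it had a median of 9546 TPM, and its lowest value, 2743 TPM in replicate 4, lay within the range of the other hosts. The sum was mostly Chil3, at 1636 TPM in that library. Chil3, Csf3r, Ly6g and Padi4 in replicate 4 each lay within the range of the other hosts. The remaining neutrophil markers in replicate 4 were above all WT and NSG libraries, among them S100a8 at 107 TPM against at most 65.1 TPM. Macrophage markers summed to between 337 and 381 TPM in Rag2-/-, between 247 and 286 TPM in WT and between 244 and 308 TPM in NSG, and 3 of the 11 tested were called higher than in WT. Progenitor genes of the leukemia, led by Elane, Ctsg and Prtn3, summed to between 18990.2 and 26544 TPM in every library. Of the 15 tested, 1 was called lower in Rag2-/- than in WT, where 0.326% of all genes were called lower: Mpo, the myeloperoxidase of granule-forming progenitors, ran from 70.1 to 287 TPM in Rag2-/-, from 508 to 593 TPM in WT and from 219 to 710 TPM in NSG. Prtn3 also passed the adjusted threshold, under the fold limit, at a mean of 2552 against 3313 TPM. T and NK cell markers summed to no more than 6.41 TPM and none of 15 passed the filter, and erythroid markers to no more than 13.7 TPM. The sum of the B cell list was mostly Ighm, but of its 4 tested genes Igkc, an antibody light chain, was called lower in Rag2-/- than in WT, at no more than 0.295 TPM against 0.745 TPM or more (mean 9.38 ± 8.29 TPM in WT, SD, n = 4), and it reached no more than 0.676 TPM in NSG. The part of these other markers in the results that follow was not tested. In such bulk samples, a difference in the share of a cell type and a difference in RNA per cell cannot be told apart.

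A call below means an adjusted p below 0.05 in limma, a linear model fitted to log2(TPM + 1) across all 15026 genes, together with a log2 fold change beyond 0.5. None of the 33 genes was called in any of the 3 comparisons. In Rag2-/- against WT, 1.47% of all genes were called in either direction. In Rag2-/- against NSG the share was 0.213%, and in NSG against WT it was 0%.

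The sizes of the differences can be bounded. In Rag2-/- against WT, the 95% interval of the log2 fold change lay wholly inside ±0.5 for 25 of 33 genes. The 8 others were Slc2a3, Pfkfb4, Aldoc, Gapdh, Ldhb, Slc16a1, Slc16a3 and Rpia. The interval lay inside ±0.5 for 28 genes in Rag2-/- against NSG and for 27 in NSG against WT. For those genes a change of 0.5 or more on the log2 scale was outside the interval, while for the others the libraries did not settle it.

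**Figure D1:**
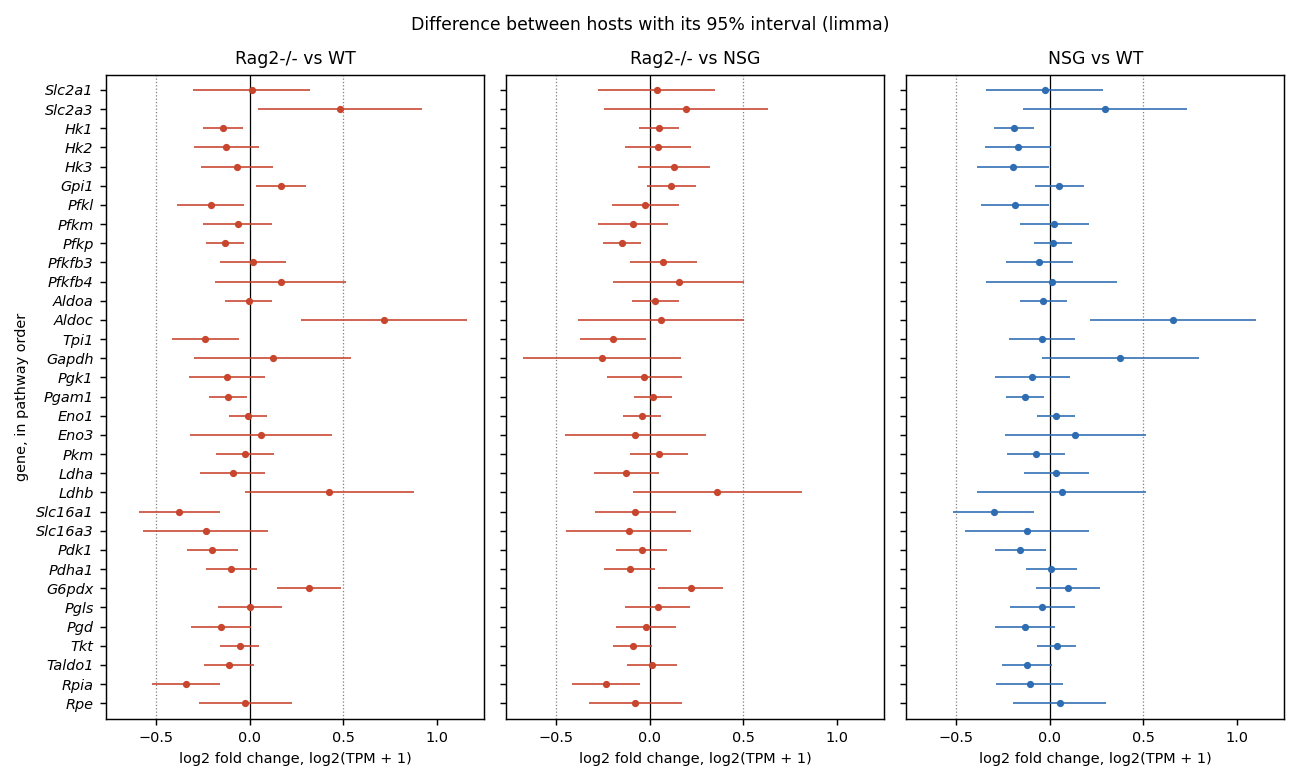
Log2 fold change of each of the 33 genes on the log2(TPM + 1) scale (points) with its 95% interval from limma (bars) in the 3 host comparisons, genes from top to bottom in pathway order. Dotted lines mark ±0.5; Aldoc, at 0.72 and 0.66, lay farthest from 0 in both comparisons with WT, and no gene was called.

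At an unadjusted p below 0.05, 4 of 33 genes were higher and 8 lower in Rag2-/- than in WT, against 12.3% and 8.66% of all genes. The higher genes were Slc2a3, Gpi1, Aldoc and G6pdx, and the lower genes were Hk1, Pfkl, Pfkp, Tpi1, Pgam1, Slc16a1, Pdk1 and Rpia. In Rag2-/- against NSG, 1 gene (G6pdx) was higher and 3 (Pfkp, Tpi1 and Rpia) were lower, against 7.72% and 4.84%. In NSG against WT, 1 gene (Aldoc) was higher and 6 (Hk1, Hk3, Pfkl, Pgam1, Slc16a1 and Pdk1) were lower, against 4.93% and 4.23%. The comparisons with WT share its 4 libraries. None of these differences passed the adjusted threshold over all genes.

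The centre of the set lay slightly below 0. The median log2 fold change was -0.064 in Rag2-/- against WT, where the median of all genes was 0.024, and 11 of 33 genes were above 0 against 54.5% of all genes. The medians were -0.020 against NSG and -0.034 for NSG against WT, with 16 and 15 genes above 0 against 53.4% and 51.5% of all genes. The median over the 33 genes of the absolute log2 fold change was 0.12, 0.076 and 0.092 in the same order, and over all genes it was 0.15, 0.12 and 0.11. Summed over the 33 genes, the level was 10008 ± 190.3 TPM in WT, 9702 ± 372 TPM in Rag2-/- and 9679 ± 424 TPM in NSG (SD, n = 4), about 0.98% of each library. These sums leave out the pseudogene copies of Gapdh and other members described below.

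The genes spanned 3 orders of magnitude in level. Taldo1, the transaldolase of the non-oxidative arm, was highest at a mean of 1147 TPM over the 12 libraries, followed by Pkm at 1071 TPM, Pgam1 at 1044 TPM and Gpi1 at 982 TPM. At the other end stood Slc2a3 at 1.78 TPM, Aldoc at 6.61 TPM, Ldhb at 7.13 TPM and Pfkfb4 at 8.06 TPM. Gapdh is ranked here without its pseudogenes, with which it averaged from 1498 TPM in WT to 1608 TPM in NSG, above Taldo1. From the lowest to the highest of the 12 libraries, Aldoc spanned 3.44-fold, Ldhb 2.76-fold and Slc2a3 2.50-fold, the widest ranges of the set, while Eno1 spanned 1.11-fold and Pfkp 1.16-fold, the narrowest.

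**Figure D2:**
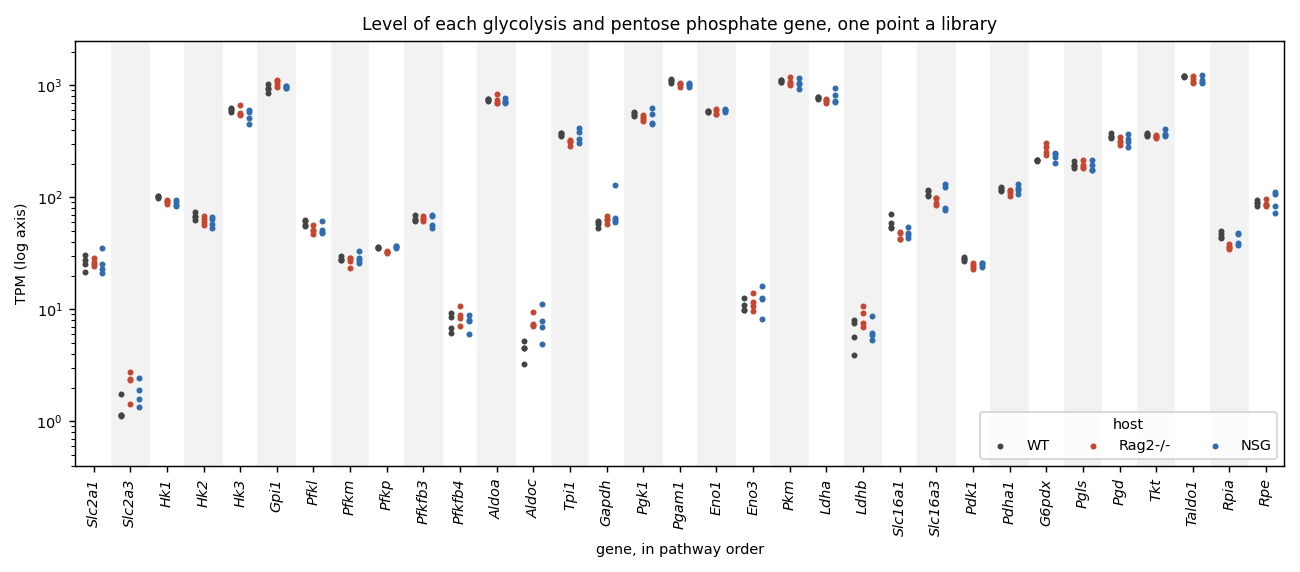
TPM of each of the 33 genes in the 12 libraries (log axis), genes in pathway order, with 4 points for each host in its colour. Levels ran from about 1.1 TPM for Slc2a3 to 1229.6 TPM for Taldo1, and the points of the 3 hosts overlap for most genes.

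Glucose enters through facilitative transporters, of which Slc2a1 (GLUT1) was the main one measured. Slc2a1 stood at 30.2, 27.7, 25.5 and 21.5 TPM in the WT libraries, at 25.5, 26.2, 28.8 and 24.5 TPM in Rag2-/- and at 25.4, 20.9, 35.0 and 22.7 TPM in NSG. The ranges overlapped fully, and the means of the hosts were 26.2, 26.3 and 26.0 TPM. The high-affinity transporter Slc2a3 (GLUT3) had the lowest mean level of the set. At the estimated depths, 3 reads falling on 1 kb would give between 0.499 and 1.29 TPM. Slc2a3 has 7245 annotated bases, so 3 reads on this gene would give a lower TPM than that. Slc2a3 stood at 1.76, 1.15, 1.15 and 1.11 TPM in WT, at 2.77, 2.34, 2.37 and 1.42 TPM in Rag2-/- and at 1.34, 1.90, 2.44 and 1.59 TPM in NSG. The lowest Rag2-/- value was replicate 4. For Slc2a3 the log2 fold change in Rag2-/- against WT was 0.48 with a 95% interval from 0.048 to 0.92, at an adjusted p of 0.196.

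Hexokinases trap glucose as glucose-6-phosphate. Hk3, the isoform typical of granulocytes and monocytes, made up 78.2 ± 0.57% of the summed TPM of Hk1, Hk2 and Hk3 in WT, 79.0 ± 0.95% in Rag2-/- and 78.0 ± 2.16% in NSG (SD, n = 4). Hk1, the widely expressed isoform, stood at 103, 98.6, 102 and 101 TPM in WT, at 90.6, 94.2, 87.8 and 93.4 TPM in Rag2-/- and at 83.6, 91.5, 84.7 and 94.0 TPM in NSG. Every WT library was above all libraries of the other hosts, but the steps were small. In NSG against WT the log2 fold change of Hk1 was -0.19 (adjusted p = 0.342), the lowest adjusted p of the 33 genes in that comparison, and in Rag2-/- against WT it was -0.14 (adjusted p = 0.132). Hk2, the inducible isoform often raised in tumours, averaged 68.0, 62.4 and 60.5 TPM in WT, Rag2-/- and NSG. Gpi1, which converts glucose-6-phosphate to fructose-6-phosphate, averaged 933, 1048 and 966 TPM in the same order, with overlapping ranges.

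Phosphofructokinase-1 is the committed step of glycolysis and is built from 3 isoforms. Pfkl, the liver-type subunit, averaged 59.0 ± 3.37 TPM in WT, 51.0 ± 4.06 TPM in Rag2-/- and 52.0 ± 5.99 TPM in NSG. Pfkm, the muscle-type subunit, averaged 28.2, 27.0 and 28.8 TPM. Pfkp, the platelet-type subunit, was the steadiest of the 3. It stood at 35.0, 35.4, 35.8 and 36.0 TPM in WT, at 32.3, 31.7, 32.7 and 33.03 TPM in Rag2-/- and at 36.5, 35.8, 36.7 and 35.2 TPM in NSG. All 4 Rag2-/- libraries were below all 8 others, yet the log2 fold change was only -0.13 against WT (adjusted p = 0.139) and -0.15 against NSG (adjusted p = 0.192, the lowest of the 33 genes there). Pfkp overlaps its neighbour Pitrm1, with which it shares 748 transcribed bases. In the same way, Pdha1 shares 426 bases with Map3k15 and Rpe shares 558 with Kansl1l. How the authors' counting divided such reads is not given in the sources used here. The bifunctional enzymes that set the allosteric activator fructose-2,6-bisphosphate were not called. Pfkfb3 averaged 64.1, 64.9 and 62.0 TPM and Pfkfb4 7.70, 8.74 and 7.74 TPM in WT, Rag2-/- and NSG.

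Aldolase splits fructose-1,6-bisphosphate. Aldoa carried almost all of it, at 741 ± 15.6, 741 ± 60.0 and 724 ± 28.3 TPM in WT, Rag2-/- and NSG. Aldoc (ENSMUSG00000017390), the brain-type isoform, was low but showed the largest fold of the set. It stood at 4.49, 4.50, 5.25 and 3.24 TPM in WT, at 7.22, 9.53, 7.39 and 7.06 TPM in Rag2-/- and at 4.85, 6.88, 11.2 and 7.79 TPM in NSG. All Rag2-/- libraries were above all WT libraries, and 3 of 4 NSG libraries were. The log2 fold change was 0.72 ± 0.20 (SE) in Rag2-/- against WT at an adjusted p of 0.0741, and 0.66 ± 0.20 in NSG against WT at an adjusted p of 0.422. Against WT the gene was called when limma used the 8 libraries of the comparison alone (adjusted p = 0.0299) and when NSG replicate 1 (0.0455) or NSG replicate 3 (0.0350) was left out, and over 22 alternatives the adjusted p ran from 0.0299 to 0.169. As a share of Aldoa plus Aldoc it was 0.587 ± 0.12% in WT, 1.04 ± 0.071% in Rag2-/- and 1.04 ± 0.35% in NSG. That share differed between Rag2-/- and WT at p = 0.0286 in an exact two-sided permutation test, the smallest p that 4 against 4 allows, and at 0.429 after Benjamini-Hochberg adjustment over 30 share tests.

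Of the 30 tests, which compared 10 isoform shares between the 3 pairs of hosts, that was the only p below 0.05, and no adjusted value fell below 0.429. A single share at the smallest possible p could not pass after adjustment over 30 tests, so these tests do not show that the shares were alike. Pfkp made up 29.0 to 31.0% of phosphofructokinase-1 by host mean, Slc16a3 64.8 to 67.5% of the lactate transporter pair, Slc2a3 4.67 to 7.76% of the transporter pair, Eno3 1.82 to 2.01% of the enolase pair and Ldhb 0.803 to 1.17% of the lactate dehydrogenase pair.

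The middle steps interconvert and oxidise triose phosphates. Tpi1, triose phosphate isomerase, stood at 373, 360.3, 372 and 354 TPM in WT, at 327, 316, 311 and 286 TPM in Rag2-/- and at 305, 331, 412 and 379 TPM in NSG. All Rag2-/- libraries were below all WT libraries, with a log2 fold change of -0.24 (adjusted p = 0.129), while the NSG libraries spanned both. Pgk1, which makes ATP from 1,3-bisphosphoglycerate, averaged 552 ± 19.97, 508 ± 27.3 and 523 ± 83.1 TPM.

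Gapdh, the triose phosphate dehydrogenase and a common reference gene, needs a separate reading. Its own annotated gene held 57.3, 52.8, 61.6 and 59.9 TPM in WT, 62.2, 68.3, 57.5 and 64.6 TPM in Rag2-/- and 60.1, 129.9, 65.4 and 62.9 TPM in NSG. These levels are far below those of its pathway neighbours Tpi1 and Pgk1. A comparison of the transcript with all annotated transcripts found 180 other genes, 171 of them pseudogenes, that match it over at least 200 bases at 90% identity or more. The copies summed to a mean of 1493 TPM, 95.7% of the total of Gapdh and its copies. Most of that lay on Gm5559 (mm10 chr5:95861714-95862715, 99.9% identical) at a mean of 867 TPM and Gm7336 (chr7:51746647-51747878, 99.8% identical) at a mean of 457 TPM, both processed pseudogenes. How the authors' counting placed reads that match several genes is not given in the sources used here.

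With the pseudogenes added, the Gapdh level was 1498 ± 39.9 TPM in WT, 1568 ± 22.0 TPM in Rag2-/- and 1608 ± 113 TPM in NSG (SD, n = 4). The log2 fold change of the sum was 0.066 in Rag2-/- against WT, -0.034 against NSG and 0.10 in NSG against WT, with no call. On this sum NSG replicate 2 was the highest library of its host at 1769 TPM, next to 1522, 1605 and 1537 TPM. Of the 33 genes, 18 matched no other gene at these limits, and 15 did. Tpi1 matched the pseudogene Tpi-rs11, which held a mean of 57.5 TPM, and adding it left the log2 fold change in Rag2-/- against WT at -0.25.

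**Figure D3:**
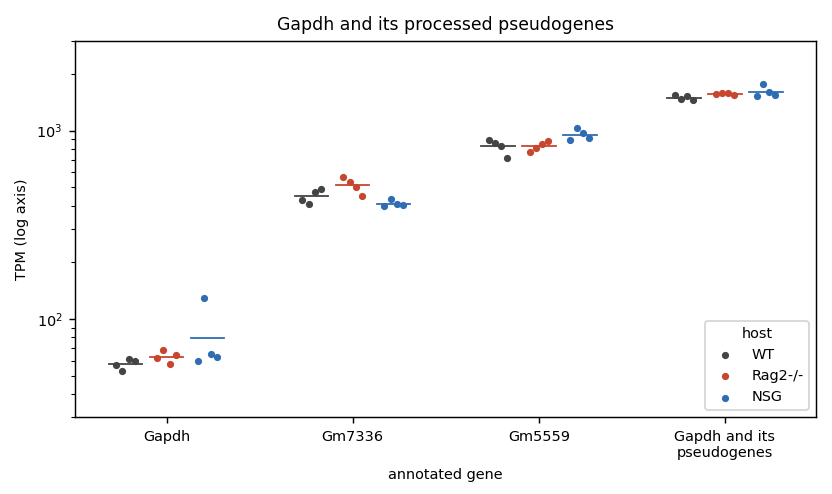
TPM by library (log axis) for Gapdh, its processed pseudogenes Gm7336 and Gm5559, and the sum of Gapdh with its pseudogenes, with points coloured by host and a line at each host mean. Gapdh itself lay near 60 TPM in 11 libraries and at 129.9 TPM in NSG replicate 2, and the sum lay between 1454 and 1769 TPM in all 12.

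Late glycolysis was carried by 3 abundant enzymes with narrow ranges. Pgam1, phosphoglycerate mutase, averaged 1104 ± 40.8 TPM in WT, 1020.2 ± 34.1 TPM in Rag2-/- and 1008 ± 27.8 TPM in NSG. All NSG libraries were below all WT libraries, with a log2 fold change of -0.13 (adjusted p = 0.457). Eno1, the main enolase, averaged 585 ± 9.10, 582 ± 30.8 and 599 ± 15.4 TPM, and the muscle enolase Eno3 averaged 10.9, 11.4 and 12.3 TPM. Pkm, pyruvate kinase, averaged 1094 ± 25.8, 1078 ± 79.1 and 1043 ± 99.0 TPM. Gene totals do not separate the Pkm splice forms.

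Lactate dehydrogenase makes lactate from pyruvate, and transporters carry it out of the cell. Ldha, the subunit that favours lactate, averaged 775 ± 16.4 TPM in WT, 729 ± 24.4 TPM in Rag2-/- and 799.8 ± 112 TPM in NSG, and Ldhb averaged 6.28, 8.62 and 6.50 TPM. Slc16a3 (MCT4), the exporter of glycolytic cells, stood at 117, 113, 105 and 102 TPM in WT, at 98.7, 97.8, 86.1 and 88.4 TPM in Rag2-/- and at 77.1, 79.9, 131 and 124 TPM in NSG. The Rag2-/- libraries lay below the WT libraries with a log2 fold change of -0.23 (adjusted p = 0.416), and the NSG libraries fell on both sides of them. Slc16a1 (MCT1, ENSMUSG00000032902), the transporter of lactate and pyruvate in most cells, stood at 53.6, 71.6, 59.0 and 53.9 TPM in WT, at 49.2, 42.2, 42.6 and 47.8 TPM in Rag2-/- and at 47.7, 43.4, 46.5 and 54.4 TPM in NSG. No Rag2-/- library reached the lowest WT library. For Slc16a1 the log2 fold change was -0.37 ± 0.099 (SE) at an adjusted p of 0.0604, which ran from 0.0506 to 0.177 over 22 alternatives, and -0.30 in NSG against WT at an adjusted p of 0.429.

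At the entry of pyruvate into mitochondria, Pdk1, the kinase that switches pyruvate dehydrogenase off, stood at 29.4, 27.9, 27.2 and 28.2 TPM in WT, at 23.7, 26.1, 23.0 and 25.0 TPM in Rag2-/- and at 26.1, 23.6, 26.0 and 25.0 TPM in NSG. Every WT library was above the 8 others. Pdk1 had a log2 fold change of -0.20 in Rag2-/- against WT (adjusted p = 0.0994) and -0.16 in NSG against WT (adjusted p = 0.508). Pdha1, the catalytic subunit of pyruvate dehydrogenase, averaged 118 ± 4.27, 111 ± 5.26 and 119 ± 10.4 TPM.

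The oxidative arm of the pentose phosphate pathway starts with G6pdx (ENSMUSG00000031400), glucose-6-phosphate dehydrogenase, its rate-limiting source of NADPH. G6pdx stood at 217, 209.8, 217 and 217 TPM in WT, at 255, 281, 303 and 238 TPM in Rag2-/- and at 244, 247, 201 and 231 TPM in NSG. Each Rag2-/- library was above every WT library, and the lowest of them was replicate 4. That library also had the lowest neutrophil marker sum of its host, and a link between G6pdx and that sum was not tested. G6pdx had a log2 fold change of 0.32 ± 0.079 (SE) with a 95% interval from 0.14 to 0.49, in Rag2-/- against WT, at an adjusted p of 0.0526. Without Rag2-/- replicate 4 it was 0.37 at an adjusted p of 0.0300, still under the fold limit, and over 22 alternatives the adjusted p ran from 0.0251 to 0.153. Against NSG it was 0.22 (adjusted p = 0.260). For the next enzymes of the arm the ranges of Rag2-/- and WT overlapped. Pgls, the lactonase, averaged 194, 195 and 189 TPM, and Pgd, which makes the second NADPH, averaged 352 ± 14.0 TPM in WT, 316 ± 19.5 TPM in Rag2-/- and 322 ± 34.6 TPM in NSG.

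In the non-oxidative arm, Rpia (ENSMUSG00000053604), the isomerase that makes ribose-5-phosphate, came closest of the 33 genes to the adjusted threshold. It stood at 49.9, 46.9, 44.0 and 43.7 TPM in WT, at 36.0, 34.7, 36.0 and 38.2 TPM in Rag2-/- and at 47.0, 39.0, 37.7 and 48.1 TPM in NSG. Each Rag2-/- library was below every WT library, and 2 of 4 NSG libraries were within the WT range. Between Rag2-/- and WT the log2 fold change was -0.34 ± 0.083 (SE) with a 95% interval from -0.52 to -0.16, at an adjusted p of 0.0502, and -0.23 against NSG (adjusted p = 0.254). Over 22 alternatives it ran from -0.36 to -0.30 and the adjusted p from 0.0200 to 0.138, below 0.05 in 7 of them but always under the fold limit. Rpe, the epimerase acting on the same substrate, averaged 89.2 ± 4.54, 87.9 ± 5.43 and 94.0 ± 18.5 TPM in WT, Rag2-/- and NSG. Tkt, transketolase, averaged 362 ± 8.77, 349 ± 6.99 and 372 ± 22.6 TPM, and Taldo1 1208 ± 9.68, 1120.2 ± 71.0 and 1112 ± 83.4 TPM.

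Complete separation of the hosts can be counted as well. All 4 Rag2-/- libraries were above all WT libraries for 2 of the 33 genes (Aldoc and G6pdx, against 10.2% of all genes) and below them for 7 (Hk1, Pfkp, Tpi1, Slc16a1, Slc16a3, Pdk1 and Rpia, against 6.72%). Against NSG the Rag2-/- libraries were above for 0 genes (4.34% of all) and below for 1, Pfkp (2.25%). The NSG libraries were above WT for 0 genes (2.21%) and below for 3, Hk1, Pgam1 and Pdk1 (2.38%).

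Within hosts, the 33 genes varied less than genes at large. The median SD of log2(TPM + 1) over the 4 libraries of a host was 0.057 for the 33 genes and 0.13 for all genes in WT, 0.094 and 0.14 in Rag2-/-, and 0.16 and 0.19 in NSG. Most of the 33 genes were abundant, and the part of level in this was not tested. NSG was the most variable host, and its libraries split in a recurring way, in these genes and over all genes. Replicates 3 and 4 were both above replicates 1 and 2 for 11 of the 33 genes (Hk2, Aldoa, Aldoc, Tpi1, Pgk1, Pgam1, Eno3, Pkm, Ldha, Slc16a3 and Taldo1), which is 33.3% against 20.8% of all genes. They were both below for 3 (Pfkfb3, G6pdx and Rpe), which is 9.09% against 27.6% of all genes. Ldha, for example, stood at 709.5 and 721 TPM in NSG replicates 1 and 2 and at 949.99 and 819 TPM in replicates 3 and 4, and Pgk1 at 459.9, 449, 623 and 559 TPM. The labels give nothing that sets these libraries apart, and this order was noticed after the values were seen.

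**Figure D4:**
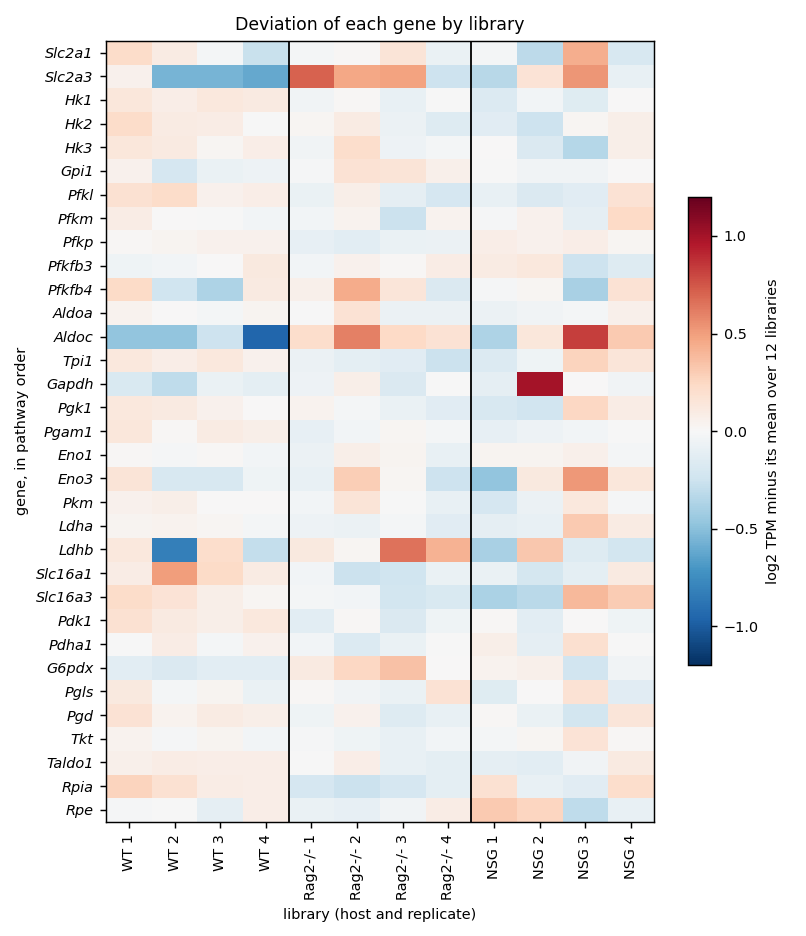
Deviation of log2 TPM from its mean over the 12 libraries (colour, from -1.2 to 1.2), for each of the 33 genes (rows, in pathway order) in each library (columns, by host). Most cells are pale; the strongest colours are Gapdh in NSG replicate 2, and Aldoc, Ldhb and Slc2a3, which are among the genes of low level, and Slc16a3, Ldha and Pgk1 change sign within NSG.

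Genes of glycolysis and lactate handling are textbook targets of HIF-1 and MYC. The core binding letters of HIF-1 are ACGTG or GCGTG, and those of MYC are CACGTG. Only ACGTG, which CACGTG contains, was searched for here, so GCGTG was neither counted nor marked. RefSeq promoter windows on GRCm38.p6, 250 bases before to 50 after the annotated start, were at hand for 32 of the 33 genes, all but Slc2a3, and the first window listed for each gene was searched for ACGTG on both strands. It occurred in 13 of the 32 (40.6%) and in 19.7% of the first windows of 27025 genes. A CACGTG holds ACGTG on both strands and was counted on each. Ldha held the most, with 5 matches and 2 CACGTG, and Slc16a1 and Pfkm held 3 each with 1 CACGTG. A match is a run of letters and not a site shown to be bound. Shown are 2 genes of the recurring NSG order, Ldha and Pgk1, and the 3 genes nearest the adjusted threshold between Rag2-/- and WT, with ACGTG, or CACGT where it reads on the other strand, in capitals.
Ldha, chr7:46845554-46845853, plus strand: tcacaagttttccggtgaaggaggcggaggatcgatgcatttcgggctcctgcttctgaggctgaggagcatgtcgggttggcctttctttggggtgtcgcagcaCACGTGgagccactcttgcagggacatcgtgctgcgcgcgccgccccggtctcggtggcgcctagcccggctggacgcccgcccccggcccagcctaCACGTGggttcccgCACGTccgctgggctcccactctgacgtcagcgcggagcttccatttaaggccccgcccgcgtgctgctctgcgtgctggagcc
Pgk1, chrX:106186850-106187149, plus strand: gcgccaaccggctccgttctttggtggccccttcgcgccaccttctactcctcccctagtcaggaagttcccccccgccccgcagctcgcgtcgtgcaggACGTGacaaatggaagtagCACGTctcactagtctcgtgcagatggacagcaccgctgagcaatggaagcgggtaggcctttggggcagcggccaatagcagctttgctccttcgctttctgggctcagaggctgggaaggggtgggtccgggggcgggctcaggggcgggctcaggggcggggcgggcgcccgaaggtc
Slc16a1, chr3:104638414-104638713, plus strand: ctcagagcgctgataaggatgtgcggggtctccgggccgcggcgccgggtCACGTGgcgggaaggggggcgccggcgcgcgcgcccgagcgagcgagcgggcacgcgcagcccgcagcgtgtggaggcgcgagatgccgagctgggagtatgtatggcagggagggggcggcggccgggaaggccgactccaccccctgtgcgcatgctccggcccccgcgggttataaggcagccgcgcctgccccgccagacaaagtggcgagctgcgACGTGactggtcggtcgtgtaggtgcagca
G6pdx, chrX:74428831-74429130, minus strand: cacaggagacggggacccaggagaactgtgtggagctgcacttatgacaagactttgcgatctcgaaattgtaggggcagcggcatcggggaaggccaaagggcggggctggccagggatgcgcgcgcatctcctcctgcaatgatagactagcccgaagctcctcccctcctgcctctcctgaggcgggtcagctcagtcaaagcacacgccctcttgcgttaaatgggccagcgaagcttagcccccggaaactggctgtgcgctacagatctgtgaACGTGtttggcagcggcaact
Rpia, chr6:70792126-70792425, minus strand: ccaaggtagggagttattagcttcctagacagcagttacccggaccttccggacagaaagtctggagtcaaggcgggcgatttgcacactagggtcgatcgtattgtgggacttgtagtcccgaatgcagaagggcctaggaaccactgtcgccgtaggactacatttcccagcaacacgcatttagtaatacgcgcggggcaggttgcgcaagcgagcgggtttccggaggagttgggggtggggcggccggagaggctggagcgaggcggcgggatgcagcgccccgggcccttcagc
G6pdx held 1 match to ACGTG, Pgk1 held 2, and the Rpia window held none, with GCGTG not counted.

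The regulators of these pathways and the neighbouring genes were counted from lists of their own. Of 21 regulators of glycolysis, all tested, 1 was called higher and 1 lower in Rag2-/- against WT, where 1.14% and 0.326% of all genes were, and none in the other comparisons. Of 9 tested further transporters, 1 was called higher against NSG, where 0.193% of all genes were. Of 19 tested hypoxia response genes outside glucose metabolism, 1 was called higher against WT. None was called among 9 tested further glycolytic enzymes, 11 genes of pyruvate entry, 8 further pentose phosphate genes and 8 genes of gluconeogenesis and glycogen.

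Txnip, which restrains glucose uptake and is itself induced by glucose, was the regulator called higher. It stood at 95.2, 89.997, 105 and 125 TPM in WT, at 155, 147, 186 and 182 TPM in Rag2-/- and at 114, 126, 134 and 124 TPM in NSG. All Rag2-/- libraries were above the 8 others, and the log2 fold change was 0.69 ± 0.10 (SE) against WT (adjusted p = 0.00919) and 0.42 against NSG (adjusted p = 0.121). The call against WT held in each of the 22 alternatives, with adjusted p up to 0.0400. In NSG against WT the log2 fold change was 0.27 (adjusted p = 0.495).

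Slc2a6, a lysosomal hexose transporter of myeloid cells, stood at 26.2, 24.2, 25.6 and 23.4 TPM in WT, at 36.1, 39.0, 37.3 and 29.0 TPM in Rag2-/- and at 18.7, 21.9, 22.9 and 24.0 TPM in NSG. The Rag2-/- libraries were above the 8 others, with replicate 4 lowest. The log2 fold change was 0.67 ± 0.0997 (SE) against NSG (adjusted p = 0.0256, called) and 0.49 against WT (adjusted p = 0.0280, just under the fold limit). The call against NSG was lost in 10 of 22 alternatives, among them without Rag2-/- replicate 1, 2 or 3 or NSG replicate 1, 2 or 4, and over the 22 the adjusted p ran from 0.00314 to 0.120.

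Egln3, the oxygen-sensing prolyl hydroxylase PHD3, was called lower. It stood at 120.1, 99.3, 113 and 108 TPM in WT, at 66.7, 72.7, 65.4 and 101 TPM in Rag2-/- and at 102, 93.9, 85.7 and 92.7 TPM in NSG. Rag2-/- replicate 4 lay within the WT range. The log2 fold change was -0.54 ± 0.12 (SE) against WT at an adjusted p of 0.0352, -0.68 without Rag2-/- replicate 4 (adjusted p = 0.00158) and -0.47 without Rag2-/- replicate 3 (adjusted p = 0.119), the lowest and highest adjusted p of 22 alternatives. The call was lost in 10 of them, among them without any WT library and without Rag2-/- replicate 1, 2 or 3. The transcription factor Bhlhe40 was called higher against WT, at a mean of 13.5 ± 2.59 against 6.47 ± 1.35 TPM (log2 fold change 0.96, adjusted p = 0.0431). That call was lost in 12 of 22 alternatives, among them without any WT or Rag2-/- library or NSG replicate 4, and over the 22 the adjusted p ran from 0.0104 to 0.138.

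**Figure D5:**
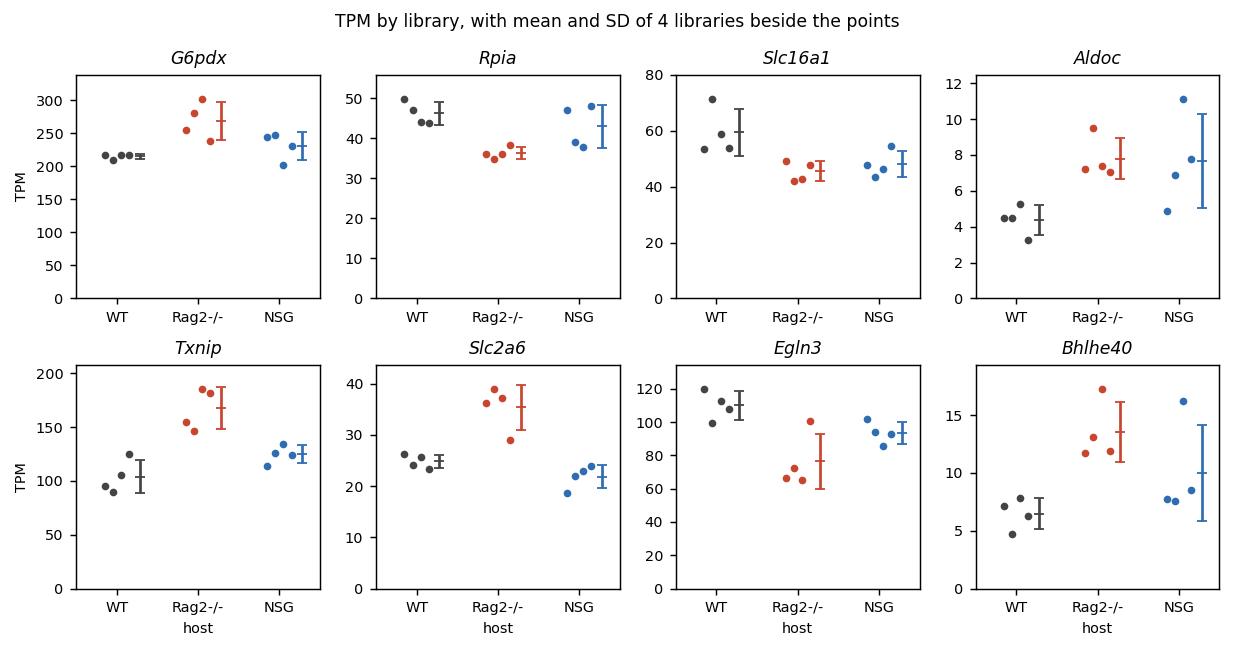
TPM by library for the 4 members nearest the adjusted threshold between Rag2-/- and WT (top) and the 4 other genes called in a comparison (bottom), with the mean and SD of the 4 libraries of each host beside the points and axes from 0. Rag2-/- points of G6pdx, Aldoc, Txnip, Slc2a6 and Bhlhe40 all lay above the WT points, those of Rpia and Slc16a1 all below, and those of Egln3 overlapped at replicate 4.

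The transcription factors themselves were not called. Hif1a averaged 85.0 ± 2.82, 89.8 ± 7.93 and 84.7 ± 11.5 TPM and Myc 159 ± 18.9, 165 ± 8.12 and 158 ± 38.8 TPM in WT, Rag2-/- and NSG, with log2 fold changes of at most 0.09 in either direction. Bsg (basigin), the chaperone of the lactate transporters and the highest gene of the transport list, averaged 636 ± 28.5, 564 ± 15.5 and 621 ± 30.3 TPM. Its log2 fold change was -0.17 in Rag2-/- against WT (adjusted p = 0.0796). Tigar, a fructose-2,6-bisphosphatase that diverts sugar to the pentose phosphate pathway, averaged 44.0 ± 1.74, 38.7 ± 1.31 and 42.1 ± 0.65 TPM (log2 fold change -0.18 against WT, adjusted p = 0.0677). H6pd, the glucose-6-phosphate dehydrogenase of the endoplasmic reticulum, averaged 200.1 ± 4.91, 184 ± 8.21 and 172 ± 15.7 TPM, lower in all NSG than in all WT libraries (log2 fold change -0.22, adjusted p = 0.364). The subunits of the mitochondrial pyruvate carrier, Mpc1 and Mpc2, averaged 9.37, 9.504 and 9.21 TPM and 18.5, 19.4 and 18.6 TPM.

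Among the neighbouring genes past the adjusted threshold but under the fold limit in Rag2-/- against WT, Pygl, the glycogen phosphorylase of liver and myeloid cells, averaged 214 against 166 TPM (log2 fold change 0.37, adjusted p = 0.0338). G6pc3, the glucose-6-phosphatase of the endoplasmic reticulum that neutrophils depend on, averaged 83.1 against 109 TPM (-0.39, adjusted p = 0.0388). Prkab1, a regulatory subunit of the energy sensor AMPK, averaged 62.5 against 52.5 TPM (0.25, adjusted p = 0.0388), and Anxa2 averaged 143 against 113 TPM (0.34, adjusted p = 0.0309). In the same libraries the most abundant further genes of each list, such as Fbp1 at 214 TPM, Dld at 139 TPM, Prps1 at 153 TPM and Plin2 at 264 TPM as means over the 12 libraries, were not called.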

How the data were processed

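RNA was sequenced from paired ends, aligned by the authors to mm10 with HISAT2 on Galaxy, and deposited as TPM, which the authors made from raw read counts; the counting tool, annotation and lengths are not given in the sources used here. The spacing of low values implied about 8000000 to 21400000 reads per library, with 63.3 to 66.4% of values under 20 reads within 0.05 of a whole number, so depth is an estimate and sets the precision of low genes. Groups came from the sample titles. Each gene with a mean of at least 1 TPM was tested on log2(TPM + 1) with limma 3.58.1 in R 4.3.3. The fit used lmFit, contrasts and eBayes with a trend on all 12 libraries, with Benjamini-Hochberg adjustment per comparison. Fold changes on this scale understate those of low genes. A check on simulated data planted only changes larger than those of the 33 genes, so it says nothing about changes of their size. A call needed an adjusted p below 0.05 and a log2 fold change beyond 0.5. Isoform shares had exact two-sided permutation tests. Transcript copies were sought with blastn 2.17.0. Aldoa has 2 identifiers, of which the abundant one was used; the other, ENSMUSG00000114515, held at most 3.98 TPM. Named genes were all 33 members, and from other lists those called, the most abundant and a set of regulators; those just under the fold limit were named after their values were seen. Members and lists were chosen with earlier results of these data known. Alternatives were other pseudocounts, filters, scalings and fits, each library left out, and, added after seeing the data, pseudogene copies summed with their gene.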

Additional observations from a re-analysis of the deposited data

Results flagged for a closer look

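Among 132 sets of 4 libraries, 7 had a highest or lowest library set apart from the other 3 by a gap that, as a share of the whole range, passed Dixon's 95% critical value, where chance gives about 1 in 20, or 6.6. For Gapdh, NSG replicate 2 was at 129.9 TPM next to 60.1 to 65.4 TPM (gap 0.924). For Slc2a3, WT replicate 1 was at 1.76 TPM next to 1.11 to 1.15 TPM (0.938). Rag2-/- replicate 2 was highest for Hk3, at 662 TPM next to 545 to 561 TPM (0.869), and for Aldoc, at 9.53 TPM next to 7.06 to 7.39 TPM (0.867). For G6pdx, WT replicate 2 was lowest, at 209.8 TPM next to 216.5 to 217 TPM (0.924). For Bhlhe40, NSG replicate 3 was at 16.2 TPM next to 7.59 to 8.51 TPM (0.893), and for Mpc1, NSG replicate 1 was at 10.97 TPM next to 8.45 to 8.75 TPM (0.880).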

How the results depend on the processing

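The count of members called stayed at 0 in all 22 alternatives for Rag2-/- against NSG and for NSG against WT. For Rag2-/- against WT it was 1 (Aldoc, higher) with the 8 libraries of the comparison alone and, over the fits that left out a library, ran from 0 to 1. The median log2 fold change of the members ran from -0.087 to -0.032 in Rag2-/- against WT, from -0.039 to 0.018 against NSG and from -0.049 to -0.0028 in NSG against WT. Each value was within 0.042, the spread between libraries, of the reported median. That spread is the SD of single libraries within a host, not the error of a difference between hosts. It therefore does not settle the sign of any of the medians, -0.020 against NSG and -0.034 in NSG against WT included. Against NSG the median was above 0 without Rag2-/- replicate 4, NSG replicate 3 or NSG replicate 4. The isoform share tests were too small for a single share to pass after adjustment and show nothing about stability (lowest adjusted p over the alternatives 0.286). Replicate numbers did not pair the libraries, since every correlation of same-numbered libraries was between -0.091 and 0.032. A replicate block called 0 members, and over all genes 127 higher and 38 lower against WT, next to 172 and 49 without it, and 5 and 0 against NSG, next to 29 and 3. Over all genes, leaving out a library gave 40 (without WT replicate 2) to 245 (without NSG replicate 3) genes higher and 6 to 81 lower against WT, and 4 to 77 and 0 to 15 against NSG; the cause was not tested. With all genes above 0 tested the counts were 91 and 23 against WT and 5 and 2 against NSG. Slc2a3, Aldoc, Ldhb and Pfkfb4 had the lowest levels, but the reads on a gene also depend on its length. Eno3, at 11.5 TPM over 1739 annotated bases, would get fewer reads than Pfkfb4, at 8.06 TPM over 4875.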
